A study of Mus musculus with 203 samples.

Results

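The receptor genes for thyrotropin-releasing hormone (TRH), *Trhr* and *Trhr2*, and for the tachykinins, *Tacr1*, *Tacr2* and *Tacr3*, were followed in single motor neurons of the mouse nucleus ambiguus (Amb). These 5 genes, of 24029 in the count table, were taken by name, and *Trhr* and *Tacr3* drew attention because of their high counts in one cardiac type in these same libraries. Their levels are therefore given as a description, with no test. Neurons came from wild-type C57BL/6NCrl mice (C57BL/6 in the labels) at postnatal days 2 to 4, after cholera toxin B, a tracer that travels back along axons, had been placed around the heart or in the cricothyroid muscle of the larynx. The authors' annotation divides the neurons labeled from the heart (cardiac Amb neurons) into 53 ACP and 98 ACV neurons, and its laryngeal cluster holds the same 52 neurons as the label from the larynx (laryngeal Amb neurons). All mice had the same genotype. The heart and the larynx were labeled in separate mice by different surgery and tracer volumes, so every difference between cardiac and laryngeal neurons cannot be told apart from one of procedure or mice. ACP and ACV were defined by clustering these counts, and the labels name no mouse, litter or sex, so each type counted as 1 sample.

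TRH is a 3-residue peptide that is released in the medulla as a transmitter as well as in the hypothalamus as a hormone, and it excites many motor neurons. The tachykinins substance P and neurokinin A, from *Tac1*, and neurokinin B, from *Tac2*, act on the NK1, NK2 and NK3 receptors, which *Tacr1*, *Tacr2* and *Tacr3* encode. All of these receptors pass through the membrane 7 times and couple mainly to Gq, which activates phospholipase C, releases calcium from internal stores and closes potassium channels.

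The receptor genes resemble each other in coding sequence, so the stretches where they are most alike are shown first, since these are where a read would be hardest to assign. All coordinates are of build GRCm38 (mm10), the sequences are from the GENCODE transcripts and run 5′ to 3′ on the coding strand. *Trhr* lies on chromosome 15 from 44196135 to 44235912 (plus strand) and *Trhr2* on chromosome 8 from 122356967 to 122360746 (minus strand). Their coding sequences were identical at 66.2% of the aligned bases of the shorter gene, and their longest common run had 18 bases, in capitals below, in a single exon of each gene that codes for the last membrane-spanning helix (chr15:44229281-44229338 and chr8:122357326-122357383).
Trhr: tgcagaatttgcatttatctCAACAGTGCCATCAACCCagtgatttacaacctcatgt
Trhr2: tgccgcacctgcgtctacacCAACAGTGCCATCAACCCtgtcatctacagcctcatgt

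*Tacr1* (chromosome 6, 82402334 to 82560104), *Tacr2* (chromosome 10, 62252438 to 62265990) and *Tacr3* (chromosome 3, 134829007 to 134934579) all lie on the plus strand, and their coding sequences were 69.1 to 71.4% identical in pairs. *Tacr2* and *Tacr3* shared at most 29 bases in a row (not shown), and so did *Tacr1* and *Tacr3*, in capitals below. The stretch again codes for the last helix, and it crosses an exon junction in both genes, which is why its ends lie at chr6:82554996-82556934 and chr3:134930022-134932137.
Tacr1: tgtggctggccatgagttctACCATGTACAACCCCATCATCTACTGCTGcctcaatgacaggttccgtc
Tacr3: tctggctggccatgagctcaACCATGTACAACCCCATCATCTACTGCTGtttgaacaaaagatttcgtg

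The reads had 75 bases, far longer than either run. No stretch of 75 bases of the annotated *Trhr*, *Trhr2*, *Tacr2* or *Tacr3* transcripts occurred in a transcript of another gene, and 18 of 6413 such stretches of *Tacr1* did. Exons of the 5 genes overlapped no exon of another gene on either strand. The cDNA method does not keep strand, and the counter and gene annotation the authors used are not given in the sources used here.

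The RefSeq promoter table (GRCm38.p6) held *Tacr1*, *Tacr2* and *Tacr3*. The 250 bases before the start of *Tacr3*, the receptor gene with the widest ratio between the cardiac types, are given for chr3:134828757-134829006 (plus strand), with the matches of 4 motifs in capitals.
Tacr3 promoter: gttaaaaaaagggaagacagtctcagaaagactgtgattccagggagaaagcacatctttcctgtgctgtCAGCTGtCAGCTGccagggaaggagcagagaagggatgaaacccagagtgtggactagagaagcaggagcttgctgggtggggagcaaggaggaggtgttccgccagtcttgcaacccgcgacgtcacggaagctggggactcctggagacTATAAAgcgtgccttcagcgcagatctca

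Both strands were searched for 4 motifs. The TATA box, TATAAA, began 29 bases before the *Tacr3* start, and 12.4% of 32841 promoters of the same length held it. The E-box, CANNTG, occurred 2 times, side by side, and was present in 66.2% of promoters. The window held no TAAT, a core that homeodomain factors bind, which 54.9% of promoters had. It also lacked the GC box, GGGCGG, found in 32.7% of promoters. The motifs did not overlap each other here, and binding was not measured.

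Depth differed between the types. After removal of *Rn45s*, the ribosomal RNA precursor, the median neuron had 1115380 counts in ACP (330407 to 2396541), 1120510 in ACV (313668 to 2226230) and 560892 in laryngeal neurons (118492 to 1821510). *Rn45s* itself took a median of 34.3, 35.8 and 58.6% of the counts, so levels are given as counts per 1000000 counts outside *Rn45s* (CPM). *Slc18a3*, the vesicular acetylcholine transporter gene and a marker of cholinergic neurons, had reads in every neuron, with a median of 917 CPM in ACP, 673 in ACV and 1492 in laryngeal neurons. *Chat*, which encodes the enzyme that makes acetylcholine, had reads in all ACP and ACV neurons and in 46 of 52 laryngeal neurons. Neurons over the limit of 1800 *Apoe* counts (a glial gene) that the methods give numbered 11 in ACP, 28 in ACV and 0 among laryngeal neurons. No 2 neurons had identical counts.

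*Trhr*, the main TRH receptor gene, was the most widely detected of the 5 genes in ACP neurons. At least 1 read was present in 40 of 53 ACP neurons (75.5%, exact Clopper-Pearson 95% interval 61.7 to 86.2%), 20 of 52 laryngeal neurons (38.5%, 25.3 to 52.98%) and 13 of 98 ACV neurons (13.3%, 7.26 to 21.6%). These intervals cover counting error only and treat neurons of unnamed mice as independent, so here and below they are no test between types. The level in ACP neurons ranged from 0 to 826 CPM with a median of 111.03, and 27 neurons exceeded 100 CPM. In laryngeal neurons the median was 0 and the highest value 177.02 CPM, and in ACV neurons the median was 0 and the highest value 194.5 CPM. The ranges of the types overlapped, since each held neurons without a read.

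Summed over neurons, *Trhr* had 9747 counts in ACP (150.9 CPM, exact Poisson 95% interval 147.9 to 153.9), 833 in laryngeal neurons (26.3, 24.6 to 28.2) and 233 in ACV neurons (2.01, 1.76 to 2.29). The ratio was 74.9 between ACP and ACV (exact conditional 95% interval 65.8 to 85.7), 5.73 between ACP and laryngeal neurons (5.34 to 6.15) and 13.1 between laryngeal and ACV neurons (11.3 to 15.2). PCR reads without molecular tags are not independent molecules, so these intervals understate the error. The 74.9-fold ratio was 32.8 with the neurons weighted equally and 238 in the 45 ACP and 76 ACV neurons with under 50% of counts on *Rn45s*, and the 13.1-fold ratio lay between 4.11 and 74.3 over the settings tried. The ratio of ACP to laryngeal neurons was 3.20 in neurons with under 50% on *Rn45s* and 8.88 with *Rn45s* kept in the totals.

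**Figure D1:**
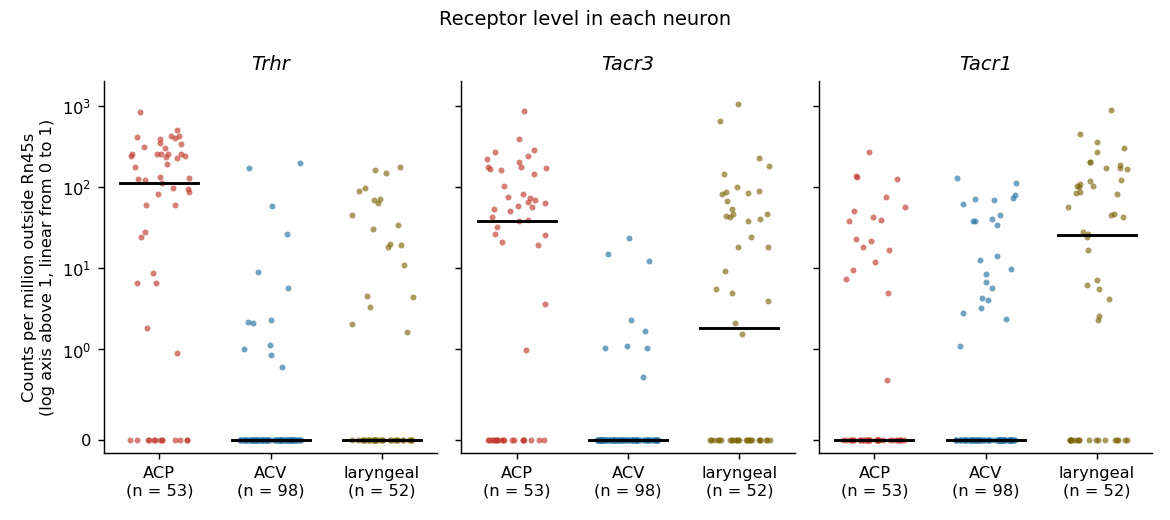
Level of *Trhr*, *Tacr3* and *Tacr1* in each neuron by type, in CPM (outside *Rn45s*) on an axis that is logarithmic above 1 and linear below; points are single neurons and black lines medians. *Trhr* has a median of 111.03 in ACP neurons and 0 in the other two types, *Tacr3* a median of 38.6 in ACP, and *Tacr1* a median of 25.2 in laryngeal neurons.

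The ACV neurons with *Trhr* differed from ACP neurons in the number of reads behind a detection. In ACP, 38 of the 40 detections rested on at least 5 reads. In ACV, 8 of 13 rested on 1 to 4 reads, and the others had 86, 61, 35, 22 and 16 reads. The neurons with 61 and 86 reads stood at 194.5 and 168.2 CPM, within the range of ACP neurons. They had 1 and 2 of the 5 ACP marker genes the study names (*Calb1*, *Pappa2*, *Sema3c*, *Brinp3* and *Tbx2*) and 0 and 2 of the 5 ACV ones (*Bche*, *Ghsr*, *Hoxa5*, *Hoxc4* and *Htr3b*). These 2 neurons were among the shallower ones, with 313668 and 511254 counts outside *Rn45s*. The neurons with 35, 22 and 16 reads had 4, 3 and 2 of the ACP markers, with summed levels of 543, 326 and 34.4 CPM. They had 3, 4 and 4 of the ACV markers. Over all 13 ACV neurons with *Trhr*, the summed ACP markers had a median of 51.5 CPM, against 48.3 CPM in the 85 without it. For the summed ACV markers the medians were 452 and 641 CPM. The marker lists were drawn from these same neurons.

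*Trhr2*, the second TRH receptor gene of rodents, had nearly all of its reads in laryngeal neurons. It had 1 read in 1 ACP neuron, no read in 98 ACV neurons (0 of 98, which at a limit of 3 counts allows up to 3.06% of neurons with a read), and reads in 6 of 52 laryngeal neurons (11.5%, 4.35 to 23.4%). The 6 neurons had 170, 54, 25, 13, 5 and 1 reads, or 222, 72.6, 67.6, 27.6, 5.84 and 1.86 CPM. A single neuron thus held 63.4% of the 268 laryngeal counts. Only 2 of the 6 also had *Trhr* reads, while 4 had *Tacr3* and 4 had *Tacr1*. Against a floor of 3 counts over all ACV neurons, the summed level was at least 327-fold higher in laryngeal neurons, and at least 122.5-fold without the highest neuron. The bound was 12.4-fold in the 15 laryngeal and 76 ACV neurons with under 50% of counts on *Rn45s*.

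*Tacr3*, which encodes the neurokinin B receptor NK3, was found in 34 of 53 ACP neurons (64.2%, 49.8 to 76.9%), 27 of 52 laryngeal neurons (51.9%, 37.6 to 65.99%) and 9 of 98 ACV neurons (9.18%, 4.29 to 16.7%). The ACP and laryngeal intervals overlapped, and the ACV share was the lowest. Levels ran from 0 to 853 CPM in ACP with a median of 38.6, from 0 to 1055 CPM in laryngeal neurons with a median of 1.83, and from 0 to 23.5 CPM in ACV with a median of 0. The 9 ACV neurons had 30, 22, 12, 4, 3, 1, 1, 1 and 1 reads. In contrast to *Trhr*, no ACV neuron reached the ACP median of this gene.

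The summed *Tacr3* counts were 5132 in ACP (79.4 CPM, 77.3 to 81.7), 2318 in laryngeal neurons (73.3, 70.4 to 76.4) and 75 in ACV neurons (0.648, 0.510 to 0.812). ACP exceeded ACV 122.6-fold (97.6 to 156.1), and laryngeal neurons exceeded ACV 113.1-fold (89.9 to 144.3). Between ACP and laryngeal neurons the ratio was 1.08 (1.03 to 1.14). A single laryngeal neuron carried 32.4% of the laryngeal counts, and without the highest neuron of each type the ratio was 1.40. It was 1.68 with *Rn45s* kept in the totals, and all settings left it under 2-fold.

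*Tacr1*, which encodes the substance P receptor NK1, showed another order of types, with laryngeal neurons first. It was detected in 34 of 52 laryngeal neurons (65.4%, 50.9 to 78.03%), 19 of 53 ACP neurons (35.8%, 23.1 to 50.2%) and 24 of 98 ACV neurons (24.5%, 16.4 to 34.2%). The laryngeal share was the highest, and the ACP and ACV intervals overlapped. The highest neuron had 884 CPM among laryngeal, 266 among ACP and 127.9 among ACV neurons, and the median was 25.2 CPM in laryngeal neurons and 0 in both cardiac types. Summed counts were 2772 in laryngeal, 1295 in ACP and 812 in ACV neurons, or 87.7, 20.05 and 7.02 CPM. Laryngeal neurons exceeded ACP 4.37-fold (4.09 to 4.67) and ACV 12.5-fold (11.5 to 13.5), and ACP exceeded ACV 2.86-fold (2.62 to 3.12). In neurons with at most 900 *Apoe* counts the 2 laryngeal ratios were 2.77 and 6.55. A single ACP neuron with 403 reads held 31.1% of the ACP counts, and without the highest neurons ACP exceeded ACV 2.40-fold.

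*Tacr2*, which encodes NK2, the neurokinin A receptor, had no read in ACV or laryngeal neurons, which at a limit of 3 counts allows up to 3.06 and 5.77% of neurons with a read. Among ACP neurons 1 of 53 had it, with 67 reads (39.7 CPM). That neuron also had 649 reads of *Tacr3* and 28 of *Tacr1*, and none of *Trhr*.

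Because the genes differ in length, levels can be compared between genes only per length. The lengths used here join all GENCODE exons of a gene, which may not be the exons the authors counted. Per kilobase of annotated exon, the order of summed levels in ACP was *Trhr* (37.7 CPM per kb), *Tacr3* (21.1), *Tacr1* (3.09), *Tacr2* (0.459) and *Trhr2* (0.0116). In laryngeal neurons it was *Tacr3* (19.5), *Tacr1* (13.5), *Trhr* (6.59) and *Trhr2* (6.33), and in ACV neurons *Tacr1* (1.08), *Trhr* (0.503) and *Tacr3* (0.172). The laryngeal values of *Trhr* and *Trhr2* rested on 20 and 6 neurons, and without the highest neuron of each they were 5.05 and 2.37 CPM per kb. The same scale thus put a TRH receptor first in ACP and a tachykinin receptor first in both other types.

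**Figure D2:**
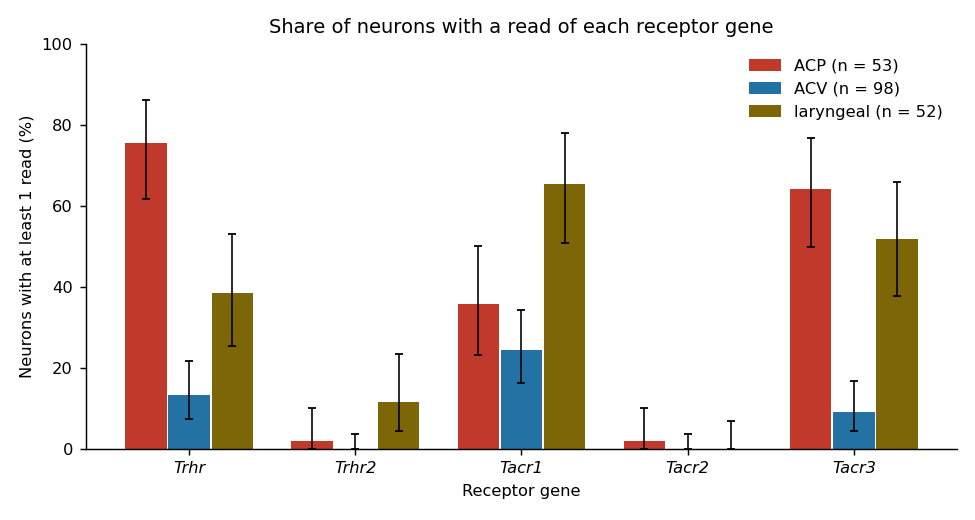
Share of neurons of each type with at least 1 read of each of the 5 receptor genes; bars start at 0 and error bars are exact 95% binomial intervals, for counting error only. *Trhr* and *Tacr3* stand at 75.5 and 64.2% of ACP neurons against 13.3 and 9.18% of ACV neurons, and *Tacr1* is highest in laryngeal neurons at 65.4%.

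To read these ratios against the other genes, the share of genes past 2-fold was taken over those that had a read in no fewer than 10% of the neurons of one or the other type. Between ACP and ACV, 13356 genes were compared, and 9.67% were over 2-fold higher in ACP and 7.21% in ACV. *Trhr*, *Tacr3* and *Tacr1* were among those higher in ACP, and *Trhr2* and *Tacr2* were below the filter. Since *Trhr* and *Tacr3* were chosen for this contrast, nothing is read from that count or from their ranks. As a description, 19 genes had a larger ratio than *Trhr*, 12 a larger one than *Tacr3* and 672 a larger one than *Tacr1*.

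Between ACP and laryngeal neurons, 9.26% of 13256 genes were over 2-fold higher in ACP and 12.3% in laryngeal neurons. *Trhr* was in the first group, *Tacr1* and *Trhr2* in the second, and *Tacr3* in neither. Between laryngeal and ACV neurons, 15.4% of 13297 genes were over 2-fold higher in laryngeal neurons, *Trhr*, *Trhr2*, *Tacr1* and *Tacr3* among them, and 9.21% in ACV neurons. Keeping *Rn45s* in the totals moved the median log2 ratio of all genes by 0.63 between ACP and laryngeal and by 0.60 between ACV and laryngeal neurons. With it, 83.2% of the genes past 2-fold were higher in ACP rather than laryngeal neurons, against 42.99% without it, and 77.8 against 37.4% for ACV. The side of 2-fold on which *Trhr*, *Tacr3* and *Tacr1* lay was the same on both scales.

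Thinning every neuron to 200000 reads outside *Rn45s*, which left out 3 laryngeal neurons, gave expected shares at one depth. *Trhr* then stood at 71.4% of ACP, 35.8% of laryngeal and 7.80% of ACV neurons. The values for *Tacr3* were 61.7, 49.2 and 4.42%, and those for *Tacr1* 32.6, 63.1 and 20.4%. The order of the types was that of the full counts for each gene.

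*Trhr* and *Tacr3* were next followed in the same ACP neuron. Both had reads in 26 of 53 neurons (49.1%, 35.1 to 63.2%), *Trhr* without *Tacr3* in 14, *Tacr3* without *Trhr* in 8 and neither in 5. The product of the single shares gives 25.7 neurons with both. *Tacr3* was present in 26 of the 40 neurons with *Trhr* (48.3 to 79.4%) and in 8 of the 13 without (31.6 to 86.1%), and the first interval lay inside the second. In neurons with at most 1800 *Apoe* counts the share with both was 50% of 42, and thinned to 200000 reads it was 45.6%.

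Among the 26 ACP neurons with both, *Trhr* had a median of 230.1 CPM (6.49 to 826) and *Tacr3* one of 57.02 CPM (0.993 to 266). Per kilobase of exon, *Trhr* was the higher of the pair in 22 of the 26. The rank correlation of the 2 levels was 0.08 over these 26 neurons and -0.08 over all 53, a description over neurons that share library chemistry and unequal depth. The 14 ACP neurons with *Trhr* alone of the pair had *Trhr* levels of 0.956 to 417 CPM, with a median of 125.7.

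**Figure D3:**
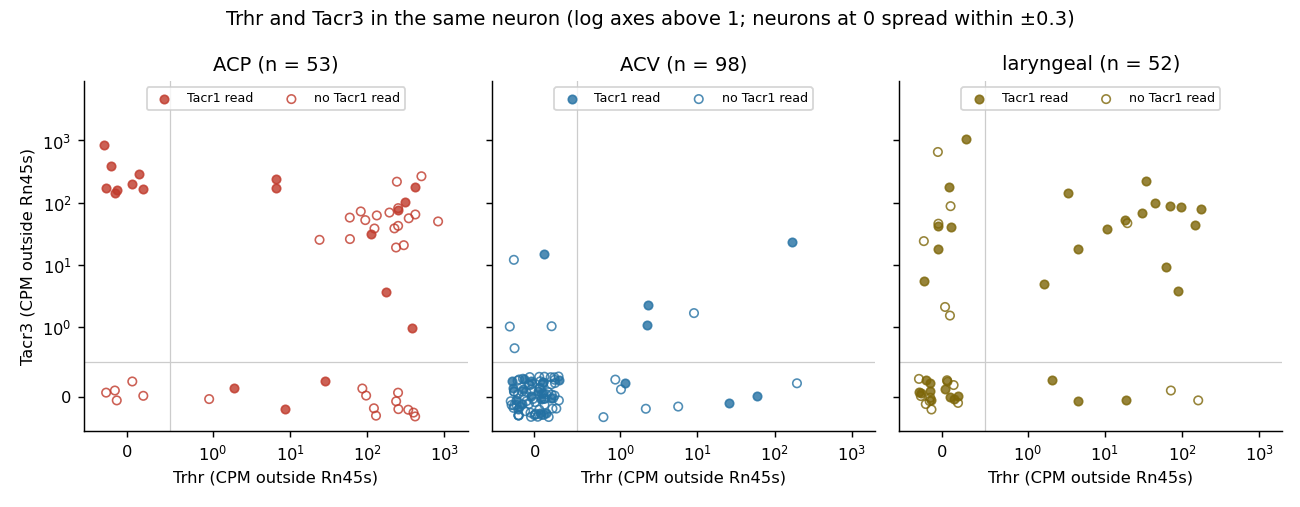
Level of *Trhr* (x axis) against *Tacr3* (y axis) in each neuron, in CPM (outside *Rn45s*), for ACP, ACV and laryngeal neurons; axes are logarithmic above 1, filled circles have a *Tacr1* read and open circles have none, and neurons at 0 are spread slightly. The 8 ACP neurons with *Tacr3* but no *Trhr*, at the upper left, lie at 143.8 to 853 on the *Tacr3* axis and are all filled.

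The 8 ACP neurons with *Tacr3* but without *Trhr* were looked at after their values had been seen. Their *Tacr3* levels were 853, 385, 287, 203.1, 172.1, 165.98, 161.5 and 143.8 CPM, with a median of 187.6. Of the 26 neurons that also had *Trhr*, 5 exceeded the lowest of these 8. All 8 had *Tacr1* reads as well, at 7.44 to 134.1 CPM, and the single *Tacr2* neuron was one of them. No ACP neuron had *Tacr3* as its only receptor gene.

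These 8 neurons had 696041 to 1747236 counts outside *Rn45s*, within the range of the neurons with both genes (587646 to 2396541). Each had at least 3 of the 5 ACP markers, with *Pappa2* in 8 of 8 and *Calb1* in 4 of 8, against 39 and 34 of the 40 neurons with *Trhr*. These markers are not confined to ACP. Of 52 laryngeal neurons, 46 had *Sema3c*, 45 *Brinp3*, 23 *Calb1*, 19 *Tbx2* and 11 *Pappa2*. The summed ACP markers had medians of 815 CPM in the 8 neurons, 971 in the 40 with *Trhr* and 450 in laryngeal neurons. *Lhx4*, a LIM homeodomain factor listed with the laryngeal genes, had reads in 5 of the 8 and in 2 of the 40. *Calca* and *Calcb*, the calcitonin gene-related peptide genes of the same list, had reads in 7 and 8 of the 8, against 18 and 21 of the 40. The other genes of the list did not follow, with *Pnoc* in 2 of the 8 and 12 of the 40, *Uts2* in 1 and 4, and *Dlk1* in 2 and 6. The summed laryngeal markers (*Calca*, *Calcb*, *Pnoc*, *Uts2*, *Dlk1* and *Lhx4*) ranged from 168.3 to 447 CPM in the 8 neurons (median 289). In the 40 neurons with *Trhr* they ranged from 0 to 1557 CPM (median 29.1), and in the laryngeal neurons the median was 2543 CPM. The part of these markers in the pattern was not tested.

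*Tacr1* was then set against both genes. *Tacr1* and *Trhr* had reads together in 11 ACP neurons, against a product of 14.3, and *Tacr1* was present in 27.5% of the 40 neurons with *Trhr* (14.6 to 43.9%) and 61.5% of the 13 without (31.6 to 86.1%). The intervals overlapped. *Tacr1* and *Tacr3* met in 16 neurons, against a product of 12.2, and *Tacr3* was present in 84.2% of the 19 neurons with *Tacr1* (60.4 to 96.6%) and 52.9% of the 34 without (35.1 to 70.2%). Over the 53 ACP neurons the rank correlation was -0.37 for *Trhr* with *Tacr1* and 0.50 for *Tacr3* with *Tacr1*. The levels of the second pair were also correlated with the number of genes detected in a neuron, at 0.33 for *Tacr3* and 0.31 for *Tacr1*, against 0.02 for *Trhr*.

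Counting *Trhr*, *Tacr3* and *Tacr1* together, ACP neurons most often had 2 of the 3. That was so for 29 of 53 neurons (54.7%, 40.4 to 68.4%), while 8 had all 3, 11 had 1 and 5 had none. The 11 neurons with 1 gene all had *Trhr*. Among laryngeal neurons, 14 of 52 had all 3 (26.9%, 15.6 to 41.02%), 10 had 2, 19 had 1 and 9 had none. In ACV, 63 of 98 neurons had none (64.3%, 53.97 to 73.7%), and of the 27 with 1 gene, 17 had *Tacr1*. The pair *Trhr* and *Tacr3* without *Tacr1*, found in 18 ACP neurons, was seen in 1 ACV and 1 laryngeal neuron.

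**Figure D4:**
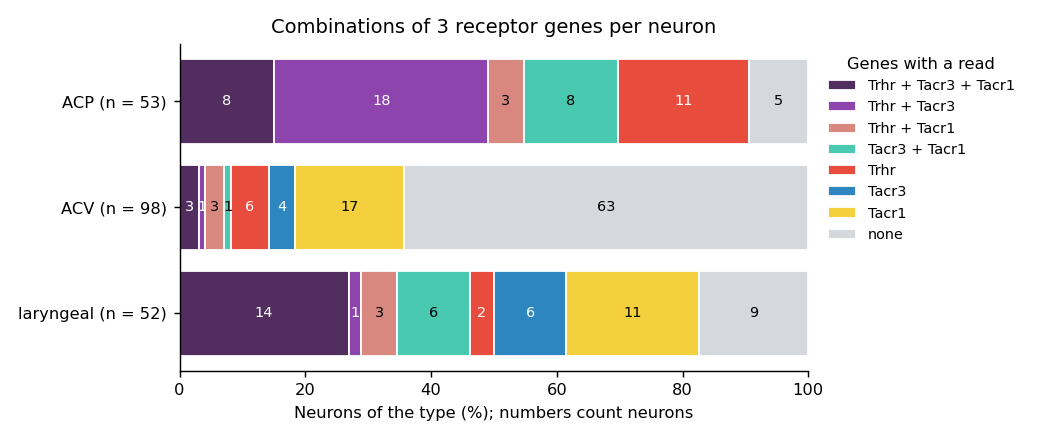
Share of neurons of each type (x axis, %) by which of *Trhr*, *Tacr3* and *Tacr1* had a read; the number in each block counts neurons. *Trhr* with *Tacr3* alone makes up 18 of 53 ACP neurons but 1 of 52 laryngeal neurons, where all 3 genes together (14 neurons) are the most frequent combination, and 63 of 98 ACV neurons have none.

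The 5 ACP neurons without any of these genes had fewer genes detected. Their number of genes ran from 5125 to 7706 with a median of 5530, against medians of 8616 in the neurons with both *Trhr* and *Tacr3*, 6857 with *Trhr* alone of the pair and 7852.5 with *Tacr3* alone of the pair. Their counts outside *Rn45s*, 330407 to 1538206, overlapped those of the neurons with both. Of the 5 ACP markers, they had 2 to 5. Whether these neurons lacked the transcripts or lost them in the procedure cannot be told apart.

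In laryngeal neurons, *Trhr* and *Tacr3* were both present in 15 neurons, against a product of 10.4, and *Tacr3* was found in 75.0% of the 20 neurons with *Trhr* (50.9 to 91.3%) and 37.5% of the 32 without (21.1 to 56.3%), with intervals that overlapped. Per kilobase of exon, *Trhr* was the higher of the pair in 5 of the 15, against 22 of 26 in ACP. Of these 15, 14 also had *Tacr1*. The neurons with both had a median of 8356 genes detected, against 6764 in those with neither, and 604141 against 539789 counts outside *Rn45s*. The part of depth in this pattern was not tested. In ACV neurons, 4 had both, against a product of 1.19.

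RNA of other cell types was present in every neuron type. The summed astrocyte markers (*Apoe*, *Gfap*, *Aqp4*, *Slc1a3*, *Gja1* and *Aldh1l1*, all 6 with reads in each type) had a median of 1125 CPM in the 40 ACP neurons with *Trhr* and 1545 CPM in the 13 without. For *Tacr3* the medians were 1062 and 1269 CPM. The part of such RNA in the receptor levels was not tested. Microglial markers had medians of 1.596 CPM in ACP, 17.2 in ACV and 17.4 in laryngeal neurons, and endothelial markers a median of 0 in each. The vesicular glutamate transporter genes *Slc17a6* and *Slc17a7* had a median of 9.56 CPM in ACP and 79.9 in laryngeal neurons, and the inhibitory markers *Slc32a1*, *Gad1*, *Gad2* and *Slc6a5* 28.4 and 58.2 CPM.

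The precursor genes of the ligands did not follow the order of *Trhr* and *Tacr3*, in which ACP came first. *Trh* had reads in 25 of 52 laryngeal neurons (48.1%, 34.01 to 62.4%), 9 of 53 ACP neurons (16.98%, 8.07 to 29.8%) and 7 of 98 ACV neurons (7.14%, 2.92 to 14.2%). Its summed level was 187.6 CPM in laryngeal, 9.16 in ACP and 0.700 in ACV neurons, and a single ACV neuron held 72.8% of the ACV reads. *Tac1* was detected in 34 laryngeal, 25 ACP and 43 ACV neurons (65.4, 47.2 and 43.9%), with 22.3, 14.2 and 121.5 CPM. A single ACV neuron of 3568 CPM held 50.3% of the ACV reads, and without it the ACV level was 61.4 CPM. *Tac2* was low throughout, with reads in 6, 4 and 9 neurons and at most 42.4 CPM, and *Tac4*, the hemokinin gene, had no read in any type.

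Genes that act on or after these receptors were taken as 5 lists, of which the ligand precursors are the first. Of 6 enzymes that degrade the peptides, 3 were over 2-fold higher in ACP than ACV and none was lower. The list's median log2 ratio was 1.03, against 0.04 over all 13356 genes, of which 9.67% were over 2-fold higher in ACP. The lists were chosen with earlier results of these data known, and the study names *Trhde* as enriched in ACP. From the same neurons it also names *Rgs8* for ACP, *Plcb4* for ACV, *Rgs4* for cardiac and *Trh* and *Itpr3* for laryngeal neurons. Nothing is therefore read from the values of these lists, here or below. *Trhde*, the ectoenzyme that cleaves TRH, had reads in 27 ACP and 13 ACV neurons and summed levels of 13.6 and 1.23 CPM (11.1-fold). *Mme* (neprilysin), which cleaves tachykinins, stood at 3.37 and 0.311 CPM, and *Ace*, which can also cleave substance P, at 8.73 and 2.51 CPM. Reads of *Mme* came from 12 ACP and 6 ACV neurons, with a median of 0 in both types. In laryngeal neurons *Mme* was higher than in ACP, at 17.96 CPM, and *Trhde* had 8.03 CPM. *Pgpep1*, *Prep* and *Ece1* lay within 2-fold between ACP and ACV.

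The Gq genes themselves differed little between the cardiac types. *Gnaq* was at 303 CPM in ACP and 354 in ACV, and *Gna11* at 309 and 343 CPM, and every neuron had reads of both except 2 ACV neurons without *Gna11*. Of 13 Gq and phospholipase C genes compared, 3 were over 2-fold higher in ACP, 2 in ACV and 8 in neither, where the shares over all genes were 9.67% and 7.21%. Their median log2 ratio was -0.20, against 0.04 over all genes. *Plcb4*, a phospholipase C beta, was 9.33-fold higher in ACV (398 against 42.6 CPM), and *Prkca*, a protein kinase C, 2.38-fold. The genes higher in ACP were *Gna14*, another alpha subunit of the Gq family (13.4 against 5.07 CPM), which had reads in only 6 ACP and 12 ACV neurons, and the inositol trisphosphate receptors *Itpr2* (8.50 against 2.69 CPM) and *Itpr3* (1.87 against 0.302 CPM). The last 2 had reads in 11 and 9 ACP neurons, and the median of all 3 genes was 0 in both types. *Itpr3* reached 34.8 CPM in laryngeal neurons.

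**Figure D5:**
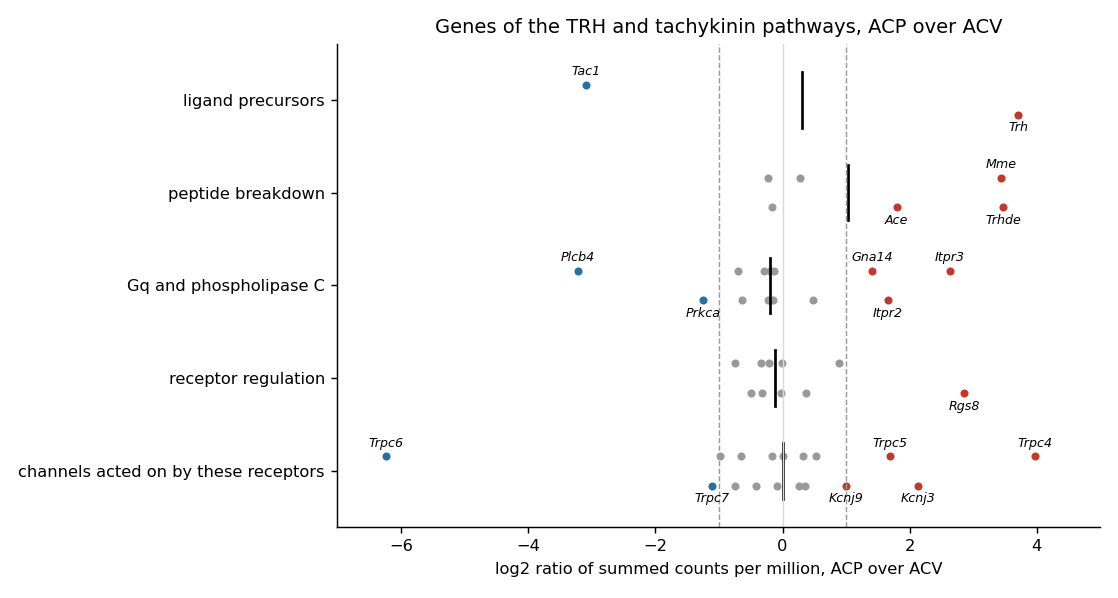
Log2 ratio of summed CPM, ACP over ACV, for the genes of 5 lists; each point is a gene, colored and named past the dashed 2-fold lines, and black lines are list medians. *Trh*, *Mme*, *Trhde* and *Trpc4* lie at 3.44 to 3.97, *Tac1* and *Plcb4* at -3.10 and -3.22, and *Trpc6*, with reads in 1 ACP neuron, at -6.23.

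Of 10 genes that regulate such receptors (G protein-coupled receptor kinases, arrestins and RGS proteins), 9 lay within 2-fold. The remaining 1 was over 2-fold higher in ACP, as were 9.67% of all genes compared. It was *Rgs8*, which speeds the shut-off of G proteins, with 41.5 CPM in ACP, 5.71 in ACV and 19.5 in laryngeal neurons. Among 17 channel genes compared, 4 were over 2-fold higher in ACP, 2 in ACV and 11 in neither, against 9.67% and 7.21% of all genes, and the list's median log2 ratio was 0.01, against 0.04. *Trpc4* and *Trpc5*, cation channels opened after Gq signaling, were 15.7-fold and 3.22-fold higher in ACP. Their relatives *Trpc6* and *Trpc7* were 75.2-fold and 2.16-fold higher in ACV. *Trpc6* had reads in 19.4% of ACV neurons (10.5 CPM summed) but in only 1 ACP neuron (0.139 CPM). The inward rectifier genes *Kcnj3* and *Kcnj9* were 4.39-fold and 2.01-fold higher in ACP. The medians of *Trpc4*, *Trpc6*, *Trpc7* and *Kcnj9* were 0 in both cardiac types. Leak channels are also known to be acted on by TRH and substance P. *Kcnk3* (TASK-1) stood at 72.4 CPM in ACP, 50.1 in ACV and 135.4 in laryngeal neurons, and *Nalcn* at 66.8, 52.2 and 82.9 CPM. *Kcnk9* (TASK-3) had reads in 1 ACP, 1 ACV and 11 laryngeal neurons, with 0.0929, 0.00864 and 6.58 CPM.

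Laryngeal neurons were compared by the same lists, on the scale without *Rn45s*. Between ACP and laryngeal neurons, 1 of 6 peptide-degrading enzymes, 3 of 13 Gq genes and 4 of 17 channel genes were over 2-fold higher in laryngeal neurons, against 0, 0 and 2 in ACP. Of 10 regulators, *Rgs4* and *Rgs8* were higher in ACP. Between laryngeal and ACV neurons, 3 of 6 enzymes, 4 of 13 Gq genes, 2 of 10 regulators and 8 of 18 channel genes were over 2-fold higher in laryngeal neurons, and 0, 2, 1 and 2 in ACV. Of the 3 ligand precursor genes compared, 2 were higher in laryngeal neurons than in ACP and 2 than in ACV, and *Tac1* was over 2-fold higher in ACV than in laryngeal neurons. Over all genes, the background against ACP was 12.3% higher in laryngeal neurons and 9.26% higher in ACP. Against ACV it was 15.4% higher in laryngeal neurons and 9.21% higher in ACV.

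The genes most like *Trhr* over the 53 ACP neurons were sought by rank correlation of CPM among 10660 genes detected in at least 25% of ACP neurons. The 5 highest were *Adcyap1* (0.76), which encodes the neuropeptide PACAP, *Vgf* (0.73), a secretory granule protein and peptide precursor, *Bdnf* (0.71), a neurotrophin, *Sema5a* (0.66), a semaphorin, and *Serpinf1* (0.66). The median over all candidates was -0.01 and the 95th percentile 0.26. *Tacr3* ranked 7155 in this order. Correlations of the 5 genes with counts outside *Rn45s* lay between -0.12 and 0.18, and with *Tacr3* between -0.16 and -0.01. Their correlations with *Trhr* lay between -0.05 and 0.25 in the other types, with *Adcyap1* at 0.04 over 98 ACV and 0.06 over 52 laryngeal neurons and *Vgf* at 0.24 and 0.25.

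The levels of these genes are given as a description, since the genes were picked for their likeness to *Trhr* in the same neurons. *Adcyap1* had a median of 356 CPM in the 40 ACP neurons with *Trhr* and 114.9 CPM in the 13 without. *Bdnf* stood at 63.9 and 0 CPM, and its highest value without *Trhr* was 29.1 CPM. *Vgf* had 60.4 and 10.5 CPM, with a highest value of 46.2 CPM without *Trhr*. The highest values of both genes in neurons with *Trhr* were 289 and 391 CPM, so the neurons at the top were all *Trhr* neurons while the lower ranges overlapped.

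The genes most like *Tacr3* were *Arhgap28* (0.65), *Fam84a* (0.64), *Celf1* (0.63), *Rnaset2b* (0.61) and *Snrnp200* (0.59). *Arhgap28* had reads in 17 of 53 ACP neurons, with a median of 0 CPM both with and without *Tacr3*. *Rnaset2b* had 5.43 CPM summed. *Fam84a*, *Celf1* and *Snrnp200* had medians of 82.1, 60.6 and 53.5 CPM with *Tacr3* and 0, 1.36 and 0 without. Correlations of the 5 genes with *Tacr3* lay between -0.24 and 0.23 in the other types. The median of the candidates was 0.08 here and the 95th percentile 0.35. *Celf1*, *Snrnp200* and *Fam84a* also rose with the number of genes detected, with rank correlations of 0.54, 0.43 and 0.42. *Trhr* ranked 8705 in the order of *Tacr3*. In the order of *Tacr1*, *Tacr3* ranked 72 of 10660.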

How the data were processed

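Single retrogradely labeled Amb neurons were aspirated and sequenced by Smart-seq2 with paired reads of 75 bases. The authors trimmed reads, aligned them to mm10 with STAR 2.6.1d and deposited raw read counts per gene and neuron. The counter and gene annotation are not given in the sources used here. Cell types are the deposited cluster labels. A deposited table of scaled values whose columns do not sum to 1000000 was not used. The stated limits of aligned reads and *Apoe* counts were not reapplied, and 39 neurons exceed 1800 *Apoe* counts.

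Counts were divided by totals outside *Rn45s* and summed by type. A gene counted as detected with at least 1 read. Ratios used a floor of 3 counts per type and genes with a read in 10% or more of the neurons of one or the other type, and called means past 2-fold. Each type is 1 sample, so no test was made between neurons; intervals are 95% exact binomial, Poisson or conditional and cover counting error only. The ratio script was checked on simulated counts. Totals outside *Rn45s* ranged from 118492 to 2396541 counts per neuron.

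Members and gene lists were chosen with earlier results of these data known. Named are the 5 receptor genes, the ligand precursors, list members past 2-fold between ACP and ACV, and the 5 genes most like *Trhr* and *Tacr3* over ACP neurons. *Gnaq*, *Gna11*, *Rgs4*, *Kcnk3*, *Nalcn* and list members that stayed within 2-fold were added after their values were seen. Alternatives were other thresholds of reads, thinning, subsets by *Apoe*, depth and *Rn45s*, totals with *Rn45s*, TMM sizes (edgeR 4.0.16), DESeq2 1.42.0 size factors, equal weight of neurons, other filters, and leaving out the highest neuron. Python 3.11.15, pandas 2.3.3, scipy 1.17.1 and R 4.3.3 were used.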

Additional observations from a re-analysis of the deposited data

How the results depend on the processing

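Among the alternative values of the main results, 150 kept their side of the 2-fold line, stayed inside the 95% interval of the main share or, for numbers of genes, stayed within 1.5 times, and the 9 others follow. With at least 5 reads, *Trhr* was detected in 5.10% and *Tacr3* in 3.06% of ACV neurons, below the intervals of 13.3 and 9.18%. In the 15 laryngeal neurons with under 50% of counts on *Rn45s*, *Tacr1* was found in 100% in place of 65.4%; the cause was not tested. The number of genes past 2-fold followed the filter on detection. Without a filter it was 5339 between ACP and ACV, 5889 between ACP and laryngeal and 6469 between ACV and laryngeal neurons, and with a filter of 25% it was 1205, 1731 and 2126, against 2254, 2854 and 3275. All 72 alternative ratios of *Trhr*, *Tacr3* and *Tacr1* kept their direction and their side of 2-fold, and the 6 alternative shares of ACP neurons with both *Trhr* and *Tacr3* ran from 45.6 to 57.7%. The limit of 1800 *Apoe* counts was added after the data were seen. Detections of 1 to 4 reads, 8 of 13 for *Trhr* and 6 of 9 for *Tacr3* in ACV, are the least certain at this depth. No paired analysis was possible because each sample is 1 neuron and the labels carry no replicate numbers shared between types.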

Other observations

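Precursor and receptor genes were also read in the same neuron. All 9 ACP neurons with *Trh* reads had *Trhr* reads, where the product of the single shares gives 6.79, with 1 to 206 reads of *Trh*. Of these, the neurons with 206 and 91 reads of *Trh* had only 1 and 2 reads of *Trhr*. In laryngeal neurons, where *Trh* was more frequent, 8 neurons had both, against a product of 9.62. In ACV neurons 3 had both (0.929). The ACV neuron with the highest *Trh* level (59 reads) had 313668 counts outside *Rn45s* and was the one with the highest *Trhr* level. *Tac1* and *Tacr1* met in 22 laryngeal neurons (product 22.2), 10 ACP neurons (8.96) and 14 ACV neurons (10.5). *Tac1* and *Tacr3* met in 20, 18 and 6 neurons, and *Tac2* and *Tacr3* in 4, 3 and 0. These counts were looked at after the data were seen and were not tested.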
